A study of Mus musculus with 79 samples.

Results

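The genes described here encode the nuclear-encoded subunits of respiratory complex I, measured in mouse muscle. Members were every gene whose symbol begins with Nduf followed by a, b, c, s or v and a number, together with Ndufab1; assembly factors (Ndufaf) and names ending in -ps were left out. The rule gave 39 of the 14253 genes of the RORA tables and 38 of the 12952 genes of the PER2 tables, where Ndufb1 had no match. Measured values were not part of the rule. A floor of 50 mean normalized counts was passed by 38 of 39 members in the RORA set, all but Ndufa4l2, and a floor of 1 CPM by all 38 in the PER2 set.

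The 79 libraries are RNA-seq of muscle from mice with a muscle-specific knockout (MKO) of PER2 or of RORA and from control (CTRL) mice labelled WT. There are 24 MKO and 19 CTRL libraries for PER2 and 18 of each kind for RORA, with separate controls for each knockout. Collection was every 4 h, from zeitgeber time (ZT, hours after lights on) 0 to ZT20, with 3 to 4 mice per genotype and time. PER2 represses the core activators of the circadian clock, and RORA is a nuclear receptor that activates clock and metabolic genes. The Cre driver, the alleles, which muscle was taken, age and sex are not stated in the labels.

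Complex I is the first and largest enzyme of the respiratory chain. It takes electrons from NADH through a flavin and a chain of iron-sulfur clusters to ubiquinone, and pumps protons across the inner mitochondrial membrane. The matrix arm holds the NADH and quinone sites, and the membrane arm holds the pumps, whose core subunits are encoded by mitochondrial DNA. The nuclear genes supply the core of the matrix arm and the accessory subunits around both arms, which are needed for assembly and stability. Oxidative muscle fibres hold more of the complex than glycolytic ones.

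The tables used give a comparison of the genotypes at each time, so values of single libraries cannot be shown and depth is unknown. In the RORA tables a log2 fold change is knockout over control. The PER2 tables do not say which genotype is over which, and their values are called positive or negative here. Rora was lower at all 6 times (mean log2 fold change -1.78 ± 0.15, SD over 6 times). Per2 had a mean of 0.37 ± 0.29 in the PER2 set and was called positive on that mean (adjusted p 0.000451 by Stouffer's sum over all genes) and, of the single times, at ZT12. Muscle genes were abundant: the mean normalized count was 792710 for Myh4 and 209483 for Ckm in the RORA set, and their levels were 68734 and 15240 CPM in the PER2 set. In whole muscle, fewer cells of a type and less RNA per cell cannot be told apart.

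In RORA knockout muscle the complex I transcripts were higher as a group, by a small amount. On the mean over the 6 times 33 of 39 members were called higher, beside 18.9% of all genes, and Ndufv3 alone was called lower, beside 19.3%. The median of the members' mean log2 fold changes was 0.12, against 0.00 for all genes. All 7 core subunits rose, as did 6 of 9 accessory subunits of the matrix arm, 8 of 9 of the proximal membrane arm, 11 of 12 of the distal membrane arm and 1 of the pair Ndufa4 and Ndufa4l2. A call on the mean is an adjusted p under 0.05 for the inverse-variance weighted mean of the 6 log2 fold changes, with Benjamini-Hochberg adjustment over all genes. Values written as mean ± SD are the plain mean and its spread over the 6 times, each of which compared different mice. With limma, which takes that spread as the error, 28 members were called higher, beside 15.1% of all genes. Ndufa2, Ndufa4, Ndufa13, Ndufb1 and Ndufc1 were no longer called.

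The direction held across the day. At ZT8, 30 of 39 members passed the authors' deposited adjusted p as higher, beside 13.7% of all genes. ZT0 and ZT4 gave 22 each (14.8% of all genes), ZT12 gave 21 (11.0%), ZT16 21 (10.4%) and ZT20 26 (16.6%). In the lower direction ZT0 gave 1 call (13.4% of all genes), ZT4 1 (14.2%), ZT8 0 (14.1%), ZT12 1 (11.1%), ZT16 2 (10.3%) and ZT20 2 (15.6%). At ZT8, 0 members were lower at an unadjusted p under 0.05 as well. A positive value at every time was found in 30 members, beside 17.5% of all genes, and a negative one at every time in Ndufv3, beside 17.1%. Called higher at all 6 times were 12 members, beside 3.95% of all genes, among them Ndufa3, Ndufa8, Ndufa9, Ndufa11, Ndufb5, Ndufb6, Ndufb9, Ndufs1, Ndufs6, Ndufs7 and Ndufv1. No member was called lower at all 6 (4.69% of all genes).

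**Figure D1:**
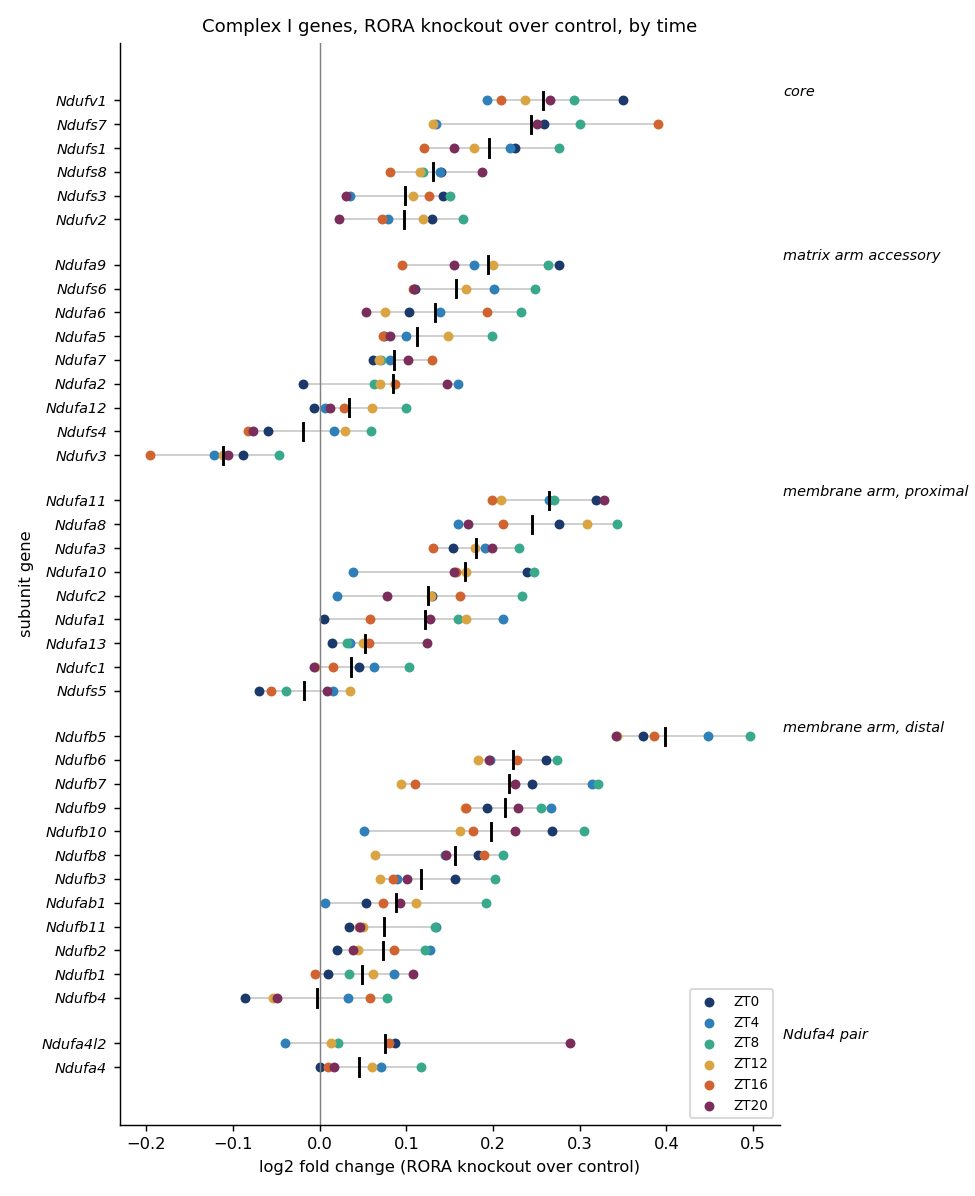
Log2 fold change (RORA knockout over control) of 38 of the 39 complex I genes, one row per gene grouped by place in the enzyme, with a point per zeitgeber time and a tick at the mean. Ndufb5 lies farthest to the right, with all 6 points between 0.34 and 0.50, and Ndufv3 is the one gene with all 6 points below 0.

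Single-time values below are log2 fold changes listed in the order of the 6 times, ZT0 first and ZT20 last. Among the core subunits Ndufv1 had the largest mean. It binds NADH and the flavin, where electrons enter. Ndufv1 had 0.35, 0.19, 0.29, 0.24, 0.21 and 0.27 in the authors' deposited tables, all called. Every time was above 0, the weighted mean was 0.26 ± 0.02 (SE), and the adjusted p by the inverse-variance mean was 1.38e-59. Its partner Ndufv2, an iron-sulfur protein, moved less, with 0.13, 0.08, 0.16, 0.12, 0.07 and 0.02 in the authors' deposited tables. Its value at ZT20 was not called, and its mean was 0.10 ± 0.05.

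Ndufs1, the largest core subunit and the carrier of several iron-sulfur clusters, had 0.23, 0.22, 0.28, 0.18, 0.12 and 0.15 in the authors' deposited tables. All times were called, and the mean was 0.20 ± 0.06. Next to the quinone site, Ndufs7 showed 0.26, 0.13, 0.30, 0.13, 0.39 and 0.25 in the authors' deposited tables. All 6 were called, with a wide spread (mean 0.24 ± 0.10) and its high point at ZT16, the time of the lowest value for 11 members.

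Ndufs8 and Ndufs3 had smaller means than Ndufv1, Ndufs7 and Ndufs1. The iron-sulfur subunit Ndufs8 had 0.14, 0.14, 0.12, 0.12, 0.08 and 0.19 in the authors' deposited tables and was called at all times but ZT16. Ndufs3, a subunit of the quinone module, had 0.14, 0.03, 0.15, 0.11, 0.13 and 0.03 in the authors' deposited tables and was not called at ZT4 and ZT20. Their means were 0.13 ± 0.04 and 0.10 ± 0.05.

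The accessory subunits of the matrix arm held 3 of the 6 members not called higher: Ndufv3, Ndufs4 and Ndufa12. Ndufv3, a small subunit at the tip of the arm, had -0.09, -0.12, -0.05, -0.11, -0.20 and -0.11 in the authors' deposited tables, called at all times but ZT8. It ran against Ndufv1 and Ndufv2 at every time. Its weighted mean of -0.11 ± 0.01 (SE) had an adjusted p of 1.73e-12 by the inverse-variance mean.

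Ndufs4 stabilises the NADH module and is mutated in Leigh syndrome. It had -0.06, 0.02, 0.06, 0.03, -0.08 and -0.08 in the authors' deposited tables, called lower at ZT16 and ZT20. On its mean of -0.02 ± 0.06 it was not called (adjusted p 0.228 by the inverse-variance mean), but without ZT8 it was called lower (0.0431), which made 2 members lower. Ndufa12 was not called either, with a mean of 0.03 ± 0.04.

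The other matrix arm accessories rose. Ndufa9, a nucleotide-binding protein of the quinone module, had 0.28, 0.18, 0.26, 0.20, 0.10 and 0.15 in the authors' deposited tables, all called. Ndufa6, which binds the acyl carrier protein, had 0.10, 0.14, 0.23, 0.08, 0.19 and 0.05 in the authors' deposited tables and was not called at ZT12 and ZT20. Both were positive throughout. The zinc-binding subunit Ndufs6 had a mean of 0.16 ± 0.06, Ndufa5 one of 0.11 ± 0.05, Ndufa7 one of 0.09 ± 0.03 and Ndufa2 one of 0.08 ± 0.06.

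In the proximal membrane arm Ndufa11 and Ndufa8 led. Ndufa11, a membrane subunit near the joint of the arms, had 0.32, 0.26, 0.27, 0.21, 0.20 and 0.33 in the authors' deposited tables, and Ndufa8 had 0.28, 0.16, 0.34, 0.31, 0.21 and 0.17 in the same deposited tables of the authors. Both were called at all 6 times, with means of 0.26 ± 0.05 and 0.25 ± 0.08. Ndufa10, which has a nucleoside kinase fold, had 0.24, 0.04, 0.25, 0.17, 0.16 and 0.15 in the authors' deposited tables. It missed the threshold at ZT4 only. Ndufa1 showed 0.01, 0.21, 0.16, 0.17, 0.06 and 0.13 in the authors' deposited tables and was not called at ZT0 and ZT16.

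Ndufa3 had a mean of 0.18 ± 0.03 and Ndufc2 one of 0.12 ± 0.07. Ndufa13, also known as GRIM19, and Ndufc1 passed with small means of 0.05 ± 0.04 and 0.04 ± 0.04. Ndufs5 had -0.07, 0.01, -0.04, 0.04, -0.06 and 0.01 in the authors' deposited tables. No time was called, and its mean was -0.02 ± 0.04.

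The distal membrane arm held the member with the largest shift. Ndufb5 had 0.37, 0.45, 0.50, 0.34, 0.39 and 0.34 in the authors' deposited tables, all called. Its lowest time lay above the highest time of every other member except Ndufa8, Ndufv1 and Ndufs7. The mean of 0.40 ± 0.06 is a fold of 1.32, and the weighted mean of 0.39 ± 0.01 (SE) had an adjusted p of 5.61e-229 by the inverse-variance mean. The exons of Ndufb5 overlap those of Mrpl47 on the opposite strand in GENCODE M21, and the strand setting of the counting is not stated in the labels.

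Ndufb10 had 0.27, 0.05, 0.30, 0.16, 0.18 and 0.23 in the authors' deposited tables and missed the threshold at ZT4. Ndufb7 had 0.24, 0.31, 0.32, 0.09, 0.11 and 0.23 in the authors' deposited tables and missed it at ZT12. These are accessory subunits around the last pumps, and both were above 0 at every time. Ndufb6 and Ndufb9, called at all times, had means of 0.22 ± 0.04 and 0.21 ± 0.04.

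Ndufb8 and Ndufb3 had means of 0.16 ± 0.05 and 0.12 ± 0.05. Ndufab1, the mitochondrial acyl carrier protein, had 0.09 ± 0.06. Of the distal members called higher, Ndufb11, Ndufb2 and Ndufb1 had the smallest means, with 0.07 ± 0.05, 0.07 ± 0.05 and 0.05 ± 0.04. Ndufb4 had -0.09, 0.03, 0.08, -0.05, 0.06 and -0.05 in the authors' deposited tables and was called at no time.

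Ndufa4, now counted as a subunit of complex IV, and its hypoxia-induced paralog Ndufa4l2 come last. Ndufa4 had 0.00, 0.07, 0.12, 0.06, 0.01 and 0.02 in the authors' deposited tables, called at ZT8 only, and a mean of 0.05 ± 0.05. Ndufa4l2 had 0.09, -0.04, 0.02, 0.01, 0.08 and 0.29 in the authors' deposited tables, called at ZT20 only, and was not called on its mean. By level per kb of transcript in the RORA set Ndufa4 was the highest member, with 6336 normalized counts, and Ndufa4l2 was the lowest with 50.2.

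The size of the RORA effect changed with time for 9 of 39 members by Cochran's Q, beside 11.0% of all genes. They were Ndufa1, Ndufa6, Ndufa8, Ndufa9, Ndufa10, Ndufb5, Ndufb7, Ndufb10 and Ndufs7. The highest of the 6 values fell at ZT8 in 24 of the 39 members and the lowest in 0. All members were measured in the same mice, so these counts are not independent, and the share over all genes was not computed. The member median was 0.19 at ZT8 and lay between 0.09 and 0.12 at the other times.

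The other respiratory complexes moved the same way. On the mean, 4 of 4 genes of complex II were called higher, 9 of 9 of complex III, 9 of 10 of complex IV and 13 of 15 of the ATP synthase. Their median log2 fold changes were 0.14, 0.17, 0.20 and 0.19, and that of all genes was 0.00. Sdhd, a membrane anchor of complex II, had a mean of 0.28 ± 0.06. Atp5b, the catalytic subunit of the ATP synthase, had one of 0.26 ± 0.06. Cox6a2, the muscle isoform of a complex IV subunit, was the one called lower, with a mean of -0.11 ± 0.11.

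Assembly factors held calls in both directions. Of 17 assembly factors 7 were called higher, beside 18.9% of all genes, and 2 lower, beside 19.3%. Their median was 0.06. Ndufaf6 had a mean of 0.30 ± 0.08 and Ndufaf5, which modifies Ndufs7, one of 0.25 ± 0.07. Ndufaf4 (-0.10 ± 0.08) and Tmem126b (-0.11 ± 0.07), which acts in membrane arm assembly, fell. Of 12 genes that bring reducing equivalents to the chain 9 rose and 0 fell, with a median of 0.19. The oxoglutarate carrier Slc25a11 (0.34 ± 0.07) was among those that rose. Of 12 regulators of mitochondrial biogenesis 5 rose and 0 fell (median 0.03), among them Tfam (0.10 ± 0.04), the factor that packages mitochondrial DNA, and Esrra (0.09 ± 0.06). Nrf1 (-0.05 ± 0.07) and Yy1 (-0.02 ± 0.05) were not called.

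**Figure D2:**
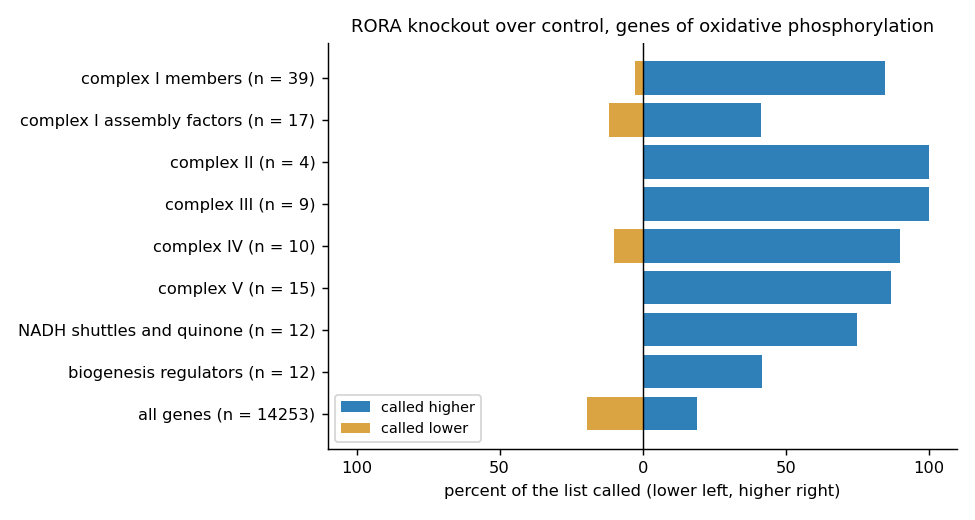
Percent of each gene list called higher (to the right) or lower (to the left) on the mean over the 6 times in the RORA set, with the number of measured genes. Complexes I to V reach far to the right of the bar for all genes (18.9% higher, 19.3% lower), and the assembly factors hold calls on both sides.

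Markers of some fibre and cell types also moved in the RORA set. Slow-fibre genes had a median of 0.62 at ZT0 (8 of 8 called higher in the authors' deposited table) and of -0.25 at ZT4 (5 of 8 called lower). The complex I medians at those times were 0.12 and 0.11. Of 8 fast-fibre genes 5 were called lower on the mean (median -0.11), among them Tnnc2 (-0.19 ± 0.07). For endothelial genes 8 of 8 were called higher (median 0.16). On the mean 1 of 4 red blood cell genes and 1 of 8 macrophage and leukocyte genes were higher, and 2 of 6 fibroblast genes were lower. Of all genes 18.9% were called higher and 19.3% lower on the mean. In such short lists the red blood cell, leukocyte and fibroblast counts do not set these cell types apart from all genes. The endothelial and fast-fibre counts were above those shares.

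Several of these lists moved at the times with the most complex I calls, ZT8 (30 of 39) and ZT20 (26 of 39), and at other times too. Of all genes 13.7% were called higher at ZT8 and 16.6% at ZT20. In the authors' deposited table for ZT8, 4 of 4 red blood cell genes (median 0.39) and 7 of 8 endothelial genes (median 0.28) were called higher. In the one for ZT20, from the same authors' deposited tables, 4 of 4 red blood cell genes (0.27) and 6 of 8 endothelial genes (0.23) were. At ZT4 (22 of 39 for complex I), 2 of 4 red blood cell genes were called higher (median 0.27), beside 14.8% of all genes. At ZT12 (21 of 39), 5 of 8 endothelial genes were (median 0.15), beside 11.0%, in the authors' deposited tables. Schwann cell and white adipocyte genes had 0 of 6 called on the mean, with opposite directions at single times. All 6 Schwann cell genes were called higher at ZT20 (median 0.79), while 4 of 6 were called lower at ZT0 (-0.23) and at ZT4 (-0.30), in the authors' deposited tables. White adipocyte genes had 5 of 6 called lower at ZT0 (median -0.75) and 5 of 6 called higher at ZT20 (0.44) in the authors' deposited tables. At ZT0, 22 of 39 complex I genes were called higher. Summed levels per group cannot be given from these tables, and the part of these cells in the complex I values was not tested.

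Promoters are shown for the ends of the range, Ndufb5 and Ndufa11 at the top and Ndufv3 at the bottom, so that the letters of genes that moved apart can be compared. Each is the 250 bases before the start of the gene, from RefSeq on GRCm38.p6, 5′ to 3′ on the plus strand, which is the strand of these genes: chr3:32736813-32737062 for Ndufb5, chr17:56717512-56717761 for Ndufa11 and chr17:31519865-31520114 for Ndufv3. Capitals mark matches to the motifs searched.
Ndufb5: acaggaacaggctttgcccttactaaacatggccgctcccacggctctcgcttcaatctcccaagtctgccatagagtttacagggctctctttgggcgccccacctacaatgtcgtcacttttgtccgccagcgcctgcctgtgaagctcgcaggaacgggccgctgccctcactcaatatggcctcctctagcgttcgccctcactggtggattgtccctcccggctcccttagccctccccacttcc
Ndufa11: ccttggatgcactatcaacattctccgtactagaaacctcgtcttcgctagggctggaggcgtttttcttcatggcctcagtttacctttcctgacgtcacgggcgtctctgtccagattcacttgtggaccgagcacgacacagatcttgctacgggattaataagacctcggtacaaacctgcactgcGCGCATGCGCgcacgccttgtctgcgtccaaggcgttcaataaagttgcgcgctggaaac
Ndufv3: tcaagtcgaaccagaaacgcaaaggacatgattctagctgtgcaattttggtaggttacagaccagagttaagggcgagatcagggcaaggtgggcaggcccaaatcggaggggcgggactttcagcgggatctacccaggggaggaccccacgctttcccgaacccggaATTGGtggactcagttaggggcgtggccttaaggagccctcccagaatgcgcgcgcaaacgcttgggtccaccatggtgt
The capitals in Ndufa11 are overlapping matches to the NRF1 motif on both strands, those in Ndufv3 are a CCAAT box on the opposite strand, and Ndufb5 held no motif searched.

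The search took both strands of 36 windows of 34 members, 250 bases before to 50 after the start, beside 32851 windows of the same length. The members without a window include Ndufa2, Ndufa4l2, Ndufb9 and Ndufs1. TAGGTCA, the core of the response element that ROR receptors bind, was found in 3 members (2.61% of all windows). Those sites are shown with their flanks, read on the strand of the gene, with the motif or its complement in capitals: chr17:56717763-56717789 (plus), chr12:101975719-101975745 (minus) and chr17:24724570-24724596 (minus).
Ndufa11: tcgcgagagtTGACCTAgccggctacc
Ndufb1: ggcagctcctTAGGTCAcggcttccgc
Ndufb10: tcttagctggTAGGTCAgggcaaagca
The mean log2 fold changes of these genes were 0.26, 0.05 and 0.20. Whether a match bears on the change was not tested.

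The other motifs gave the following. AAGGTCA, bound by estrogen-related receptors and sharing AGGTCA with the motif above, was in Ndufb2, Ndufb4 and Ndufs5 (4.72% of all windows). GCGCATGCG, for NRF1, was in Ndufa8 and Ndufa11 (1.75%), and CCGGAAGT, for ETS factors, was in Ndufs3 (3.89%). AAGATGGCG, for YY1, was in Ndufa9, Ndufc1, Ndufs4, Ndufs6 and Ndufs7 (1.4%). CACGTG, the E-box that clock activators bind, was in 3 windows of Ndufa7 and Ndufv1 (7.15%), and CCAAT in 10 members (37.4%). A match is a run of letters and not a bound site.

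In the PER2 set the members shifted together at single times, and few were called on the mean. At ZT4 all 38 had a negative value and 21 were called by the authors' deposited adjusted p, beside 6.76% of all genes called negative and 5.49% positive. At ZT0, 37 of 38 were positive and only Ndufs4 was called, beside 1.33% of all genes called positive and 1.37% negative. At ZT12, 37 of 38 were negative and only Ndufv1 was called, beside 1.34% negative and 1.99% positive.

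Away from those times no member was called. The background was 1.07% positive and 0.703% negative at ZT8, 0.479% and 0.332% at ZT16, and 0.903% and 0.618% at ZT20. At an unadjusted p under 0.05 there were 0, 0 and 1 members. A positive value at ZT0 with negative ones at ZT4 and ZT12 was seen in 36 of 38 members, all but Ndufa4l2 and Ndufs4, beside 21.9% of all genes. Ndufa4l2 was negative at all 6 times (9.08% of all genes), and no member was positive at all 6 (9.50%). None was called at all 6 times (0.193% of all genes positive, 0.147% negative).

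**Figure D3:**
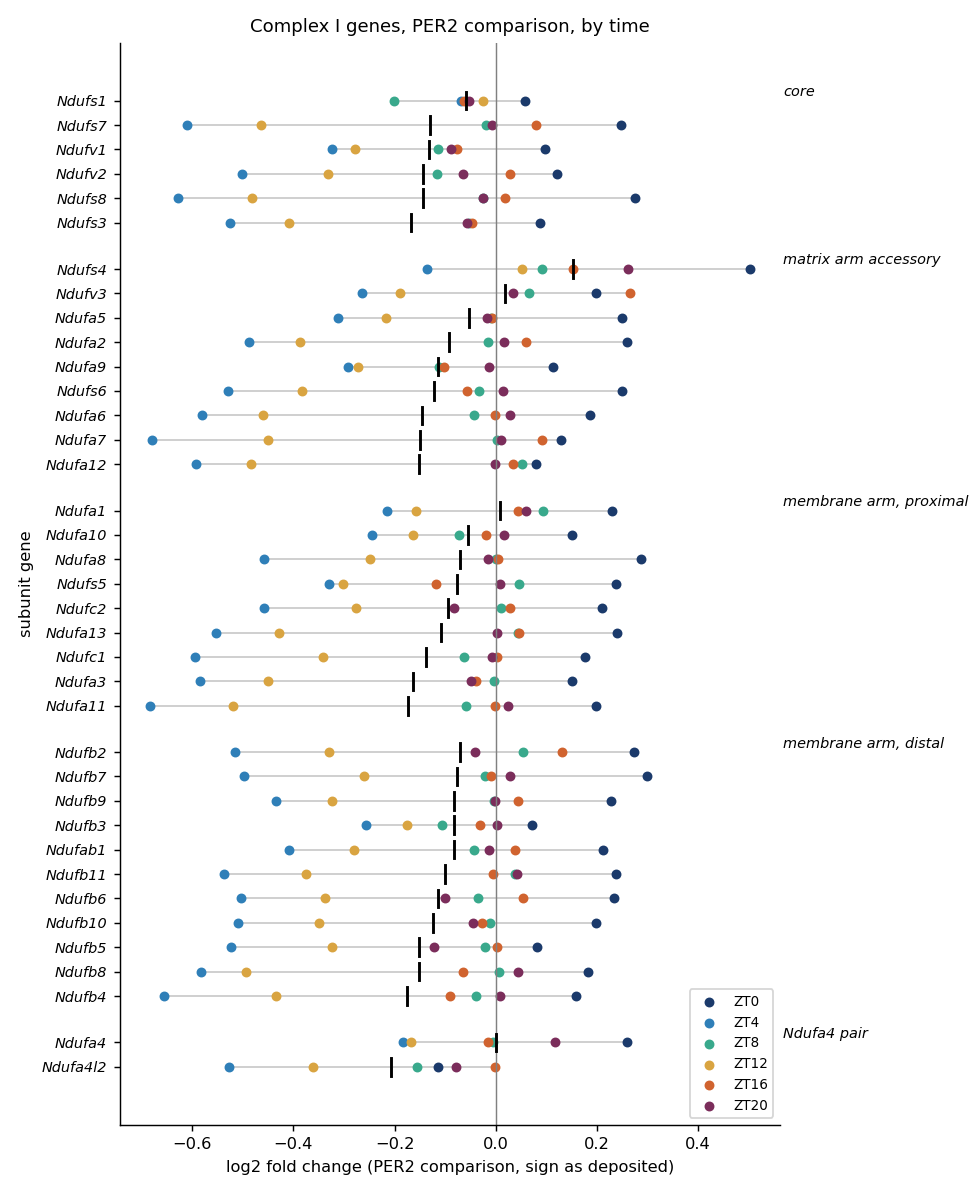
Log2 fold change of 37 of the 38 complex I genes in the PER2 set (sign as deposited), one row per gene with a point per zeitgeber time and a tick at the mean. ZT4 is the lowest time in every row drawn except that of Ndufs1, and ZT0 lies to the right in most rows.

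By time the member median was 0.20 (ZT0), -0.50 (ZT4), -0.02 (ZT8) and -0.33 (ZT12), and within 0.01 of 0 at ZT16 and ZT20. The error of a member's value at ZT4 had a median of 0.18, against 0.04 in the RORA set. By place in the enzyme the medians at ZT4 were -0.50 for the core (5 of 7 called), -0.49 for the matrix accessories (5 of 9), -0.46 for the proximal (5 of 9) and -0.51 for the distal membrane arm (6 of 11). Cochran's Q called 0 of 38 members, beside 0.0463% of all genes. At an unadjusted p under 0.05 it gave 18 members, but the share over all genes at that threshold was not computed. Q from z values also gave 0.

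In the core, Ndufv1 had 0.10, -0.32, -0.11, -0.28, -0.08 and -0.09 in the authors' deposited PER2 tables, called at ZT4 and ZT12. Ndufs3 had 0.09, -0.52, -0.05, -0.41, -0.05 and -0.06 in the authors' deposited PER2 tables, called at ZT4. Both were highest at ZT0 and lowest at ZT4. Ndufv2 had 0.12, -0.50, -0.12, -0.33, 0.03 and -0.07 and Ndufs8 0.27, -0.63, -0.02, -0.48, 0.02 and -0.03 in the authors' deposited PER2 tables, both called at ZT4. Ndufs7 had 0.25, -0.61, -0.02, -0.46, 0.08 and -0.01 in the authors' deposited PER2 tables, again called at ZT4.

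Ndufs1 was not called at any time. It had 0.06, -0.07, -0.20, -0.03, -0.06 and -0.05 in the authors' deposited PER2 tables, with its low point at ZT8. Its mean was -0.06 ± 0.08.

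The lowest means were those of Ndufa4l2, Ndufb4, Ndufa11 and Ndufs3. Ndufa4l2 had -0.11, -0.53, -0.16, -0.36, -0.00 and -0.08 in the authors' deposited PER2 tables and was called at no time. Ndufb4 had 0.16, -0.66, -0.04, -0.43, -0.09 and 0.01 and Ndufa11 0.20, -0.68, -0.06, -0.52, -0.00 and 0.02 in the authors' deposited PER2 tables, both called at ZT4. Ndufa7 was as low as Ndufa11 at that time, with -0.68 in the authors' deposited PER2 table.

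The highest means were those of Ndufs4, Ndufv3, Ndufa1 and Ndufa4. Ndufs4 had 0.50, -0.14, 0.09, 0.05, 0.15 and 0.26 in the authors' deposited PER2 tables and was below 0 at ZT4 alone. Ndufv3 had 0.20, -0.26, 0.07, -0.19, 0.26 and 0.03 in the authors' deposited PER2 tables. These subunits of the matrix arm were also the lowest in the RORA set, where Ndufv3 fell and Ndufs4 was not called. Ndufa1 had 0.23, -0.21, 0.09, -0.16, 0.04 and 0.06 and Ndufa4 0.26, -0.18, -0.01, -0.17, -0.02 and 0.12 in the authors' deposited PER2 tables, with no call.

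On the mean, by Stouffer's sum with Benjamini-Hochberg adjustment over all genes, Ndufs4 was called positive, beside 10.9% of all genes (mean 0.15 ± 0.22, adjusted p 0.018). Ndufv1 (-0.13 ± 0.15), Ndufs3 (-0.17 ± 0.24) and Ndufa9 (-0.11 ± 0.15) were called negative, beside 10.6%. Their adjusted p by the same sum were 0.00215, 0.0475 and 0.0418. The other 34 were not called, and neither share exceeds its background. The median of the means was -0.11, against -0.02 for all genes. No member was called negative without ZT4 or without ZT12, and none positive without ZT0 or without ZT20.

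The ZT4 and ZT12 values moved with transcript length and base composition across expressed genes. Complex I transcripts are short, with a median of 891.5 nt against 3015 nt for expressed genes. A smooth trend with length and GC content explained 30.2% of the variance among expressed genes at ZT4, and the figure for ZT12 was 27.8%. Across those genes the rank correlation of the value with length was 0.52 at ZT4 and 0.44 at ZT12. Among the 38 members it was 0.30 and 0.35, and all these points share the same libraries.

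With the trend removed the member median at ZT4 was -0.20, with 36 of 38 members below 0, and at ZT12 it was -0.15, with 35 below 0. At ZT4 2 members were called negative, beside 3.41% of all genes, in place of 21. They were Ndufab1 and Ndufb2, which were not among the 21 and whose annotated transcripts, 3479 and 4371 nt, are the longest of the members. The trend fitted to them at ZT4 was 0.13 and 0.18, against a member median of -0.24. Their calls therefore rest on the annotated lengths, and whether muscle expresses these long forms was not tested. No member was called at ZT12 (0.788% of all genes), and Ndufs4 was called at ZT0 (1.42%). In the RORA set 31 members were called higher with the trend removed, beside 19.5% of all genes.

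**Figure D4:**
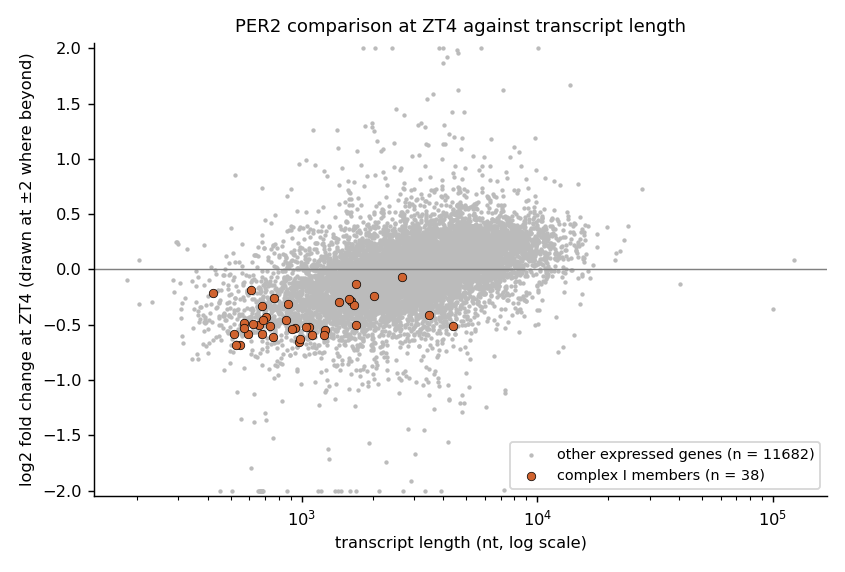
Log2 fold change at ZT4 in the PER2 set against transcript length (nt, log axis) for expressed genes, with the 38 complex I genes in orange. Short transcripts lie lower, and all 38 members lie below 0.

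**Figure D5:**
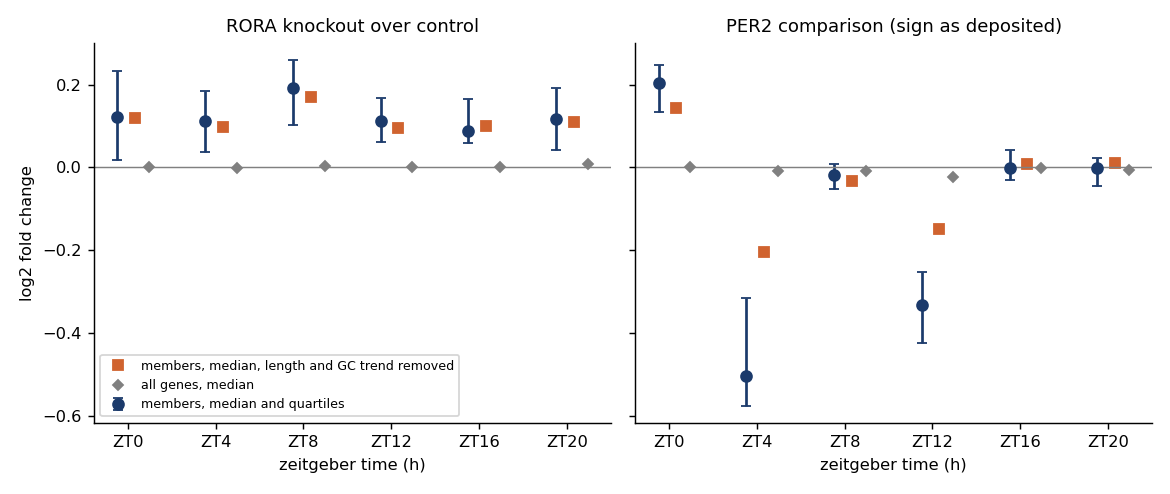
Median log2 fold change of the complex I genes at each zeitgeber time in the RORA set (left) and the PER2 set (right), with quartiles as bars, the median after removing the length and GC trend as squares and the median of all genes as diamonds. The PER2 median at ZT4 goes from -0.50 to -0.20 with the trend removed, and the RORA medians stay above 0 at every time.

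Related genes in the PER2 set give a frame for the ZT4 and ZT12 values. The 7 mitochondrial genes for the membrane core of complex I had medians of 0.07 at ZT4 and 0.06 at ZT12, and none was called on the mean. Complexes II, III, IV and V had medians of -0.28, -0.56, -0.48 and -0.44 at ZT4. Called negative at that time were 1 of 4, 4 of 9, 2 of 10 and 9 of 15 of their genes, beside 6.76% of all genes. Assembly factors had a median of -0.17 at ZT4, and 1 of 15, Ndufaf6, was called, near the share of all genes. Red blood cell genes had a median of -1.35 at ZT4, where 5 of 5 were called negative, and of -1.01 at ZT12, where 4 were, in the authors' deposited tables. Blood genes thus moved in the direction of complex I at ZT4 and ZT12. At ZT0 they did not, with a median of -0.12 against 0.20 for complex I. Their transcripts are also short (median 699 nt), and their part in the complex I values was not tested.

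The sets were compared by the size of the weighted mean, with a test that holds whichever way the PER2 sign runs; the tables of each set were normalized separately. For 3 of 38 members the RORA effect was the larger: Ndufv1, Ndufb5 and Ndufs1, with adjusted p of 0.0115, 0.02 and 0.0383 over all shared genes, from a normal test on the fitted errors. All 3 were higher in the RORA set. Of the 11429 shared genes 3.09% were called with RORA higher, and 6.74% in either direction. Ndufb5 had a weighted mean of 0.39 ± 0.01 (SE) in the RORA set and -0.15 ± 0.07 (SE) in the PER2 set. For the other 35 a difference in size was not shown, with PER2 errors from 0.04 to 0.10.

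Annotation limits some of these values. In GENCODE M21 the exons of 18 of the 39 members overlap another gene, 16 of them on the opposite strand, such as Ndufa11 with Vmac and Ndufs3 with Kbtbd4. A copy by name exists for 5 members, Ndufab1, Ndufb1, Ndufb4, Ndufa11 and Ndufs6. Reads shared in such places may have been split or left out.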

How the data were processed

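Muscle RNA was sequenced from TruSeq Stranded mRNA libraries, per the labels' protocols. According to the submitters' processing notes, the tools included STAR, Trimmomatic, MultiQC, DESeq2, bcl2fastq 2.20.0.422 and R 4.1, with GRCm39 and mm9 both listed and no role stated. Counter, strand setting and annotation: not given in the sources used here. The 12 tables are the authors' comparisons, 1 per knockout and time. Levels in the deposited RORA tables are mean normalized counts (a signal, not counts per library). Both sets hold deposited log2 fold changes, and each p-value is deposited together with its adjusted p. The deposited PER2 tables also hold a mean log2 CPM and a likelihood ratio, used as a score. Per the labels, the RORA tables were filtered at 10 reads in 3 samples. A PER2 error was derived as the absolute log2 fold change divided by the root of the likelihood ratio. The RORA ratio of log2 fold change to error was 0.886 times the z of its p (median), so sizes may be shrunken.

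Calls at 1 time use the deposited adjusted p under 0.05. Means over 6 times used an inverse-variance mean (RORA) or Stouffer's sum (PER2), and change with time used Cochran's Q (5 degrees of freedom), each adjusted by Benjamini-Hochberg over all genes. Transcript lengths and GC content came from GENCODE M21 principal transcripts (14229 RORA and 12314 PER2 genes matched). The longest coding transcript was used first and replaced after results were seen. Python 3.11.15, NumPy 2.4.6, pandas 2.3.3, SciPy 1.17.1, matplotlib 3.10.9, R 4.3.3 and limma 3.58.1 were used, and the statistics were tested on simulated data.

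Members, lists and tests were chosen with earlier results of these data known, and Ndufb1 was placed in its group after the tables were read. All 7 motifs searched are reported. The values of 1 member are not reported here, though it is in all counts and medians. Otherwise full values are given for the core subunits, the 4 highest and 4 lowest means per set, members called against most others or for change with time, Ndufa4 and Ndufa4l2. Other lists are shown by up to 4 genes with the smallest adjusted p and those called against their list; Nrf1 and Yy1 fall outside this and were named after their values were seen. Alternatives were each time left out, another way to combine times, limma, a stricter threshold, median centring, low genes left out and the length and GC trend removed.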

Additional observations from a re-analysis of the deposited data

Results flagged for a closer look

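The RORA effect differed between times for 9 members by Cochran's Q, adjusted over all genes, beside 11.0% of all genes. The adjusted p was 5.11e-06 for Ndufa10, 7.48e-05 for Ndufa9, 0.000261 for Ndufb10, 0.000661 for Ndufa8, 0.00203 for Ndufa1, 0.0076 for Ndufa6, 0.012 for Ndufb7, 0.0133 for Ndufb5 and 0.0232 for Ndufs7. All 9 were positive at all 6 times, so what differed was the size. In the authors' deposited tables Ndufa10 and Ndufb10 were lowest at ZT4 (0.04 and 0.05), Ndufa1 was lowest at ZT0 (0.01) and Ndufb7 at ZT12 (0.09).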

How the results depend on the processing

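No paired analysis was possible because the tables hold comparisons of groups, with no values per library. For the same reason no library could be left out, and depth is unknown. In the RORA set 28 (limma) to 34 (Stouffer's sum) members were called higher over all settings. The shares of all genes called higher in these 2 settings were 15.1% and 27.4%. Leaving out each time in turn gave 31 to 33 higher (16.8% to 18.2% of all genes) and 1 to 2 lower (17.1% to 18.9%). Leaving out ZT4 and ZT12 together gave 2 lower, beside 17.3% of all genes (chosen after seeing the data). Calls lower at ZT0 went from 1 to 0 at a threshold of 0.01, and those at ZT16 and ZT20 from 2 to 1 at that threshold or with the length and GC trend removed. Cochran's Q from z values called 14 members instead of 9, beside 18.4% of all genes instead of 11.0%.

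In the PER2 set leaving out each time gave 0 to 1 members positive (7.32% to 10.9% of all genes) and 0 to 6 negative (7.14% to 10.8%) on the mean. Limma and the trend removal gave 0 and 0, a threshold of 0.01 gave 0 and 1, median centring gave 1 negative, and leaving out ZT4 and ZT12 gave 0 negative. Without those times the median of the means turned from -0.11 to 0.0431 (chosen after seeing the data). Calls negative at ZT4 fell from 21 to 1 at a threshold of 0.01 and to 2 with the trend removed, by principal or longest transcript. The call at ZT12 was lost (0) with that threshold, with centring and with either trend. The cause was not tested.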

Other observations

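Levels of a few members differed between the sets, whose tables were normalized separately. As a share of the summed level of the 38 shared members, Ndufb4 was 0.295% in the RORA set and 2.06% in the PER2 set. Ndufs5, Ndufa12 and Ndufab1 were also more than 1 log2 unit lower in the RORA set. Of these 4 members 1 was called higher in RORA knockout muscle, against 31 of the other 34. The grouping was made after the values were seen. Across the 38 genes the rank correlation of the shares was 0.841.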
